A study of Mus musculus with 8 samples.

Results

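The extracellular matrix of the liver is hardened by enzymes that link collagen and elastin fibres and is remodelled by proteinases and their inhibitors. Here 10 such genes, of 32285 measured, were followed by symbol through single-nucleus RNA sequencing of mouse livers: the crosslinking enzymes Lox, Loxl1 and Loxl2, the inhibitors Timp1, Timp2 and Timp3, the matrix metalloproteinases Mmp2, Mmp14 and Mmp19, and the procollagen-processing proteinase Adamts2. The rule lists them by name and uses no measured value, although earlier results of these data were known when it was written. All 10 were detected. Their unique molecular identifiers (UMIs, tags that count captured RNA molecules) were summed per library and per cell class, and levels are given as counts-per-million values (CPM), relative to all UMIs of that library or class.

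Lysyl oxidases are secreted enzymes that oxidise lysines of collagen and elastin, and the oxidised residues then form the covalent links between fibres. In fibrotic liver the matrix is laid down mainly by activated stellate cells and portal fibroblasts, the mesenchymal cells of the organ. TIMPs bind to and block metalloproteinases, and Mmp14, a membrane-bound enzyme, activates pro-Mmp2 with the help of Timp2.

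The samples were snap-frozen livers of 8 male DIAMOND mice, a 129A1/SvIm and C57BL/6J cross that develops fatty liver disease and liver tumours on Western diet (high-fat food with fructose and glucose in the water). The WD tumour group (n = 3 mice) received Western diet for 48 weeks and had hepatocellular carcinoma. The RD tumour group (n = 2 mice) and the RD no tumour group (n = 3 mice) received it for 36 weeks and were then put back on standard chow. Carcinoma developed in the former and was not detected in the latter. All 8 mice shared the cross and the early Western diet, so no group is a healthy control, and the piece of liver sampled is not said to have contained tumour. Protocols put sampling at 48 weeks of age, which the length of the diets contradicts, so age was not used. Libraries were made from nuclear RNA with the Chromium 3′ chemistry, version 3.1.

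Each mouse gave 6048 to 20000 nuclei with at least 300 detected genes and 17948627 to 34363108 UMIs, with medians of 1120 to 2656 UMIs per nucleus. Between 0.124% and 0.676% of the barcodes of the smaller library were shared by any pair of libraries. Clustering the library profiles set RD tumour 1 apart, put WD tumour 2 beside RD no tumour 1, and joined the remaining 5. RD tumour 1 held 20000 nuclei, of which 10038 were assigned to no class, 2757 were neutrophil-gated and only 99 mesenchymal. Exactly 20000 barcodes were deposited for it and all were kept, where the other libraries had 6049 to 10868. Whether all of its barcodes hold nuclei was not tested. Mitochondrial UMIs made up a median of 7.91% per nucleus for WD tumour 1 and 7.51% for WD tumour 3, while the remaining mice ranged from 1.30% to 3.28%. Because of these differences, results that rest on 1 library are given with and without it.

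Nuclei were assigned to classes when they held UMIs of at least 3 markers of a class, and none of the 10 genes was a marker. Stellate, fibroblast and smooth-muscle nuclei together formed the mesenchymal class, which held 410, 375 and 694 nuclei in WD tumour 1 to 3, 99 and 1124 in RD tumour, and 954, 608 and 516 in RD no tumour. Its 10 leading genes, among them Ntm and Reln, held 2 to 5 of its own markers and 0 of any other class in every mouse. Endothelial and macrophage nuclei also had at least 1 own marker and 0 of other classes among their 10 leading genes. Hepatocyte-gated nuclei had 0 own markers there in every mouse: haemoglobin genes led in 5 of 8 mice, and in WD tumour 1 there was 1 marker of another class. They are therefore named by their gate only, and no groups are compared in them by a test. The summed level of 10 hepatocyte markers was 10993 to 26787 CPM in the mesenchymal class, beside 14927 to 28282 CPM in whole libraries. Hepatocyte RNA was thus present in nuclei of other cells too, and a low level of any gene in a class cannot be told apart from RNA free in the suspension. Of the neutrophil-gated nuclei of RD tumour 1, 2494 held exactly 3 markers and 263 held more. The 8 neutrophil markers summed to as much as 2126 CPM in macrophage and 1650 CPM in endothelial nuclei of RD tumour. Leading genes were not listed for the neutrophil gate, so its nuclei too are named by their gate only.

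Promoter sequences were found in RefSeq (GRCm38.p6) for 5 of the 10 genes, in windows of 250 bases before the transcript start. Printed here are 3 genes with unlike distributions over cell classes: Adamts2, concentrated in mesenchymal nuclei, Mmp14, spread over the classes, and Timp1, most abundant in 3 libraries. All are on the + strand and read 5′ to 3′. Capitals mark the GC box GGGCGG on either strand, the only one of 4 searched motifs found.
Adamts2, chr11:50601835-50602083: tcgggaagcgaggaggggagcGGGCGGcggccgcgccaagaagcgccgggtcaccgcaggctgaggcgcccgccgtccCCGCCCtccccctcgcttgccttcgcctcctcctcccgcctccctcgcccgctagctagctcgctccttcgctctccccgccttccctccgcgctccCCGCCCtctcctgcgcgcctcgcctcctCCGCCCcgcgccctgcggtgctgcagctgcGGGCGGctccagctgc
Mmp14, chr14:54431348-54431597: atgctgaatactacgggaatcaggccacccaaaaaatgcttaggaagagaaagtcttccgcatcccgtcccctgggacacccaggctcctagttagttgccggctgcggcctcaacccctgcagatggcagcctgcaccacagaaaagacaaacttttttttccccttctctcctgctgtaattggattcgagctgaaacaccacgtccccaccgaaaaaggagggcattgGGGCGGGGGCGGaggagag
Timp1, chrX:20869916-20870165: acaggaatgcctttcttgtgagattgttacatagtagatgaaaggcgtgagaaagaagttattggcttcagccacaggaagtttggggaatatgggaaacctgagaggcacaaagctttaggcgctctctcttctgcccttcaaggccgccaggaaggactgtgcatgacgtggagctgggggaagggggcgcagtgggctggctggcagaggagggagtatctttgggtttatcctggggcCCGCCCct

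The Adamts2 window held 5 GC boxes and the Mmp14 window 2, while Timp1, Timp2 and Timp3 had 1 each. All 250 bases of the Timp2 window and the last 40 of the Timp3 window lie inside the GENCODE gene. The boxes of Timp2 and Timp3 are within those bases. The GC box is present in 33.0% of all 32536 promoters of that length. The AP-1 motif TGANTCA was searched on both strands, was in none of the 5 windows and occurs in 6.73% of all promoters. The same search for the TATA box letters TATAAA found none, where 12.3% of all promoters hold it. The CAGA letters CAGAC, held by 42.2%, were likewise in none of the 5. The GC content was 78% for Adamts2, 55.2% for Mmp14 and 54.4% for Timp1. A match describes letters and not a bound site.

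Of the 10 genes, 2 were concentrated in mesenchymal nuclei in every mouse. Adamts2, which trims the amino-terminal propeptide from fibrillar procollagens, had a median level of 117 CPM in the mesenchymal class, against 9.92 in macrophages, 9.22 in endothelial and 4.20 in hepatocyte-gated nuclei. Mmp2, a gelatinase, stood at 19.97 CPM, against 2.08, 1.87 and 1.27 CPM in the same classes. For both genes the mesenchymal class was the highest in 8 of 8 mice. These are levels of each gene across classes, described with no test.

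The crosslinking enzymes followed the same order less sharply. Loxl1, the family member tied to elastic fibres, had a median of 8.87 CPM in mesenchymal nuclei and at most 2.21 CPM in the other 5 classes compared, and the mesenchymal class was its highest in 6 of 8 mice. Loxl2, which acts on collagen IV of basement membranes, stood at 9.20 CPM in mesenchymal and 4.23 CPM in endothelial nuclei, and the mesenchymal class was its highest in 7 mice. Lox itself was close to the limit of detection, with 144 UMIs in all 8 libraries and 18 in mesenchymal nuclei.

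The inhibitors differed from one another in where they were found. Timp3, which binds to the matrix itself, was nearly level between mesenchymal (164 CPM) and endothelial nuclei (157 CPM), and stood at 92.7 CPM in cholangiocytes, the cells lining bile ducts. The mesenchymal class was highest in 4 mice, the endothelial class in 3 and cholangiocytes in 1. Timp2 had 35.6 CPM in mesenchymal nuclei, 26.6 CPM in cholangiocytes and 25.7 CPM in macrophages. Timp1, the soluble inhibitor best known as a serum marker of fibrosis, gave 300 UMIs in all, and no class median passed 0.963 CPM.

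Mmp14 and Mmp19 showed no such concentration. Mmp14 medians were 33.6 CPM in mesenchymal, 32.6 CPM in endothelial, 32.6 CPM in macrophage and 24.6 CPM in hepatocyte-gated nuclei. Mmp19, a secreted metalloproteinase of many tissues, ranged only from 11.9 CPM in T/NK nuclei to 23.4 CPM in macrophages.

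**Figure D1:**
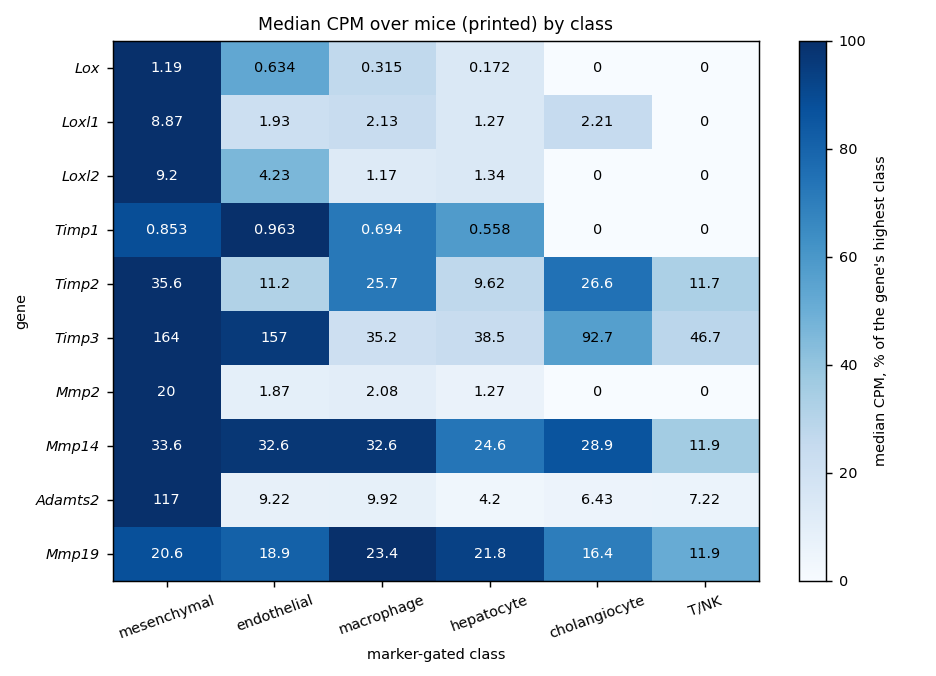
Median level over mice (CPM, printed in each cell) of the 10 genes in 6 marker-gated classes, coloured as a percentage of the gene's highest class; 8 mice for the first 4 classes and 7 for cholangiocytes and T/NK cells. Adamts2 and Mmp2 are dark only in the mesenchymal column (117 and 19.97 CPM), Timp3 in the mesenchymal and endothelial columns, and Mmp14 and Mmp19 in several.

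The mesenchymal class held a median of 7.34% of all library UMIs in the 7 mice other than RD tumour 1. In those mice it held 57.6% of the Adamts2 UMIs, 48.3% of Mmp2, 38.2% of Loxl1 and 25.0% of Loxl2. Shares of 20.8% for Timp2 and 17.1% for Timp3 lay lower, and those of Mmp14 (8.65%) and Mmp19 (5.59%) were near the share of all RNA. RD tumour 1 stood apart: its 99 mesenchymal nuclei held 2.85% of its Adamts2 UMIs and 0.701% of all its UMIs.

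Within RD tumour 1, Adamts2 stood at 14.6 CPM in hepatocyte-gated, 13.1 CPM in endothelial, 12.8 CPM in macrophage and 10.1 CPM in neutrophil-gated nuclei, beside 58.1 CPM in mesenchymal nuclei. Timp3 in that mouse differed more between classes, at 103 CPM in endothelial and 60.6 CPM in macrophage nuclei. In RD no tumour 1, Adamts2 in hepatocyte-gated nuclei was 41.9 CPM (367 UMIs), against 0.867 to 14.6 CPM in the other 7 mice. That mouse also had the highest Adamts2 level of any whole library, at 37.4 CPM.

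Across 66 class-by-mouse profiles and 13088 genes, the genes whose log2(CPM + 1) pattern was most like that of each member were listed by Pearson's r, as a description: the profiles share libraries, depth and free RNA. Adamts2 was most like Rnf150 (r = 0.864), its relative Adamts3 (r = 0.863) and the collagen V gene Col5a1 (r = 0.838). Mmp2 was most like Itgbl1 (r = 0.864), Frem1 (r = 0.853) and Fhl2 (r = 0.849). Loxl1 was nearest to Gm32618 (r = 0.830), Plxdc2 (r = 0.824) and Vgll3 (r = 0.818). Timp3 was nearest to Igfbp7 (r = 0.766), and Loxl2 to Ccdc80 (r = 0.687). Among the members themselves the highest values joined Mmp2 with Adamts2 (r = 0.727) and Loxl1 with Adamts2 (r = 0.721), while Mmp19 and Loxl1 had r = -0.04.

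The first comparison asked how the genes differed between livers kept on Western diet with tumours and livers returned to chow without tumours, within mesenchymal nuclei. No gene passed an adjusted p of 0.05: edgeR's quasi-likelihood test called 0 of 12784 genes, with 326 (2.55%) at an unadjusted p under 0.05, and DESeq2 called 13, none of them a member. With the cluster of library profiles as a block, edgeR called 27 genes, again no member. Without a block and without RD no tumour 1, it called 2. Of the 8 members with enough counts to be tested, 7 were higher and 1 lower in WD tumour by the fitted difference, and their median log2 difference was 0.50, beside -0.02 over all genes tested. For 3 of them (Loxl1, Timp3 and Mmp2) every WD tumour mouse lay above every RD no tumour mouse, as did 8.11% of all genes tested, with 3.83% in the opposite order. Lox (18 UMIs) and Timp1 (20 UMIs) were too sparse to test in this class.

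Loxl1 differed most. Its level in mesenchymal nuclei was 20.02, 34.5 and 21.1 CPM in the 3 WD tumour mice, 8.31 and 8.39 CPM in the 2 RD tumour mice, and 9.35, 5.22 and 3.75 CPM in the 3 RD no tumour mice. The WD tumour mice were thus above all 5 mice returned to chow, and the chow groups overlapped. How many of all genes showed such an order over all 3 groups was not counted, here or for the genes below. RD tumour 1 gave only 2 Loxl1 UMIs in this class and RD tumour 2 gave 27. The WD tumour mean of 25.2 ± 8.04 CPM (SD, n = 3) was 4.13 times the RD no tumour mean of 6.11 ± 2.90 CPM (SD, n = 3). The group means rest on 108 and 33 UMIs. The fitted log2 difference was 1.92 ± 0.42 (SE), with an unadjusted p of 0.0015 and an adjusted p of 0.999 by edgeR. It stayed between 1.58 and 2.38 over 21 alternatives, and stellate-gated nuclei alone gave 2.15 ± 0.43. With the cluster of library profiles as a block, the adjusted p was 0.0578, its lowest over those alternatives. Mean Loxl1 was also higher in WD tumour in hepatocyte-gated (1.59 against 0.299 CPM), endothelial (2.31 against 1.19 CPM) and macrophage nuclei (2.36 against 1.48 CPM). The mesenchymal change exceeded the endothelial by 0.97 ± 0.67 (SE) and the macrophage by 1.80 ± 0.77 (SE) on the log2 scale. The edgeR unadjusted p were 0.17 and 0.042, neither passed after adjustment, and the fit was chosen after the values were seen.

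Loxl2 and Lox did not separate the groups. Loxl2 levels were 5.93, 17.2 and 13.01 CPM in WD tumour and 14.0, 5.87 and 3.75 CPM in RD no tumour (log2 difference 0.50 ± 0.61 SE). Lox counts in this class were 1, 5 and 2 UMIs in WD tumour and 3, 2 and 0 in RD no tumour.

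Timp3 was the second gene without overlap. Mesenchymal levels were 377, 185 and 266 CPM in WD tumour, 166 and 71.5 CPM for RD tumour, and 140.2, 162 and 111 CPM in RD no tumour. All 3 WD tumour mice were above the other 5, again with no share over all genes counted. The means of 276 ± 96.4 CPM (SD, n = 3) and 138 ± 25.5 CPM (SD, n = 3) stood in a ratio of 2.01, from 1226 and 696 UMIs. The log2 difference was 0.93 ± 0.37 (SE; edgeR unadjusted p = 0.036, adjusted p = 1.00), and it was 0.64 without WD tumour 1, the highest mouse.

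Timp3 (chr10:86300372-86349506 of GRCm38, + strand) overlaps Syn3, a synapsin gene on the opposite strand, and whether the counts used strand is not given in the sources used here. Syn3 gave nearly as many UMIs as Timp3 (13375 against 14277 in all libraries). In mesenchymal nuclei it stood at 146, 144 and 127 CPM in WD tumour, 95.5 and 37.0 CPM for RD tumour, and 91.6, 88.7 and 76.6 CPM in RD no tumour. Syn3 therefore also had every WD tumour mouse above the rest, and reads of the pair cannot be told apart if strand was not used.

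Timp2 was not higher in WD tumour mesenchymal nuclei: 33.4, 37.7 and 44.4 CPM, against 39.7, 53.5 and 27.0 CPM in RD no tumour (log2 difference -0.13 ± 0.30 SE). Timp1 stood at 2, 5 and 2 UMIs in WD tumour and 9, 0 and 0 UMIs in RD no tumour.

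Mmp2 was the third gene without overlap between these groups. Its levels were 25.9, 23.0 and 45.5 CPM in WD tumour, 37.4 and 10.9 CPM for RD tumour, and 16.4, 17.0 and 10.5 CPM in RD no tumour. Of the RD tumour mice, 1 lay within the range of WD tumour and 1 within that of RD no tumour. The WD tumour mean, 31.5 ± 12.2 CPM (SD, n = 3), was 2.15 times that of RD no tumour, 14.6 ± 3.57 CPM (SD, n = 3), and the log2 difference was 1.03 ± 0.45 (SE; edgeR unadjusted p = 0.051, adjusted p = 1.00). Without WD tumour 3, the highest mouse, it was 0.67.

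Mmp14, which activates pro-Mmp2, overlapped between the groups, at 23.0, 45.1 and 55.8 CPM in WD tumour and 41.6, 21.5 and 25.5 CPM in RD no tumour (log2 difference 0.41 ± 0.42 SE). Adamts2 levels were 131, 244 and 139 CPM in WD tumour and 141, 102 and 101 CPM in RD no tumour (log2 difference 0.51 ± 0.32 SE). Only RD no tumour 1 kept these groups from separating. Mmp19 overlapped too, with a log2 difference of 0.07 ± 0.36 (SE).

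**Figure D2:**
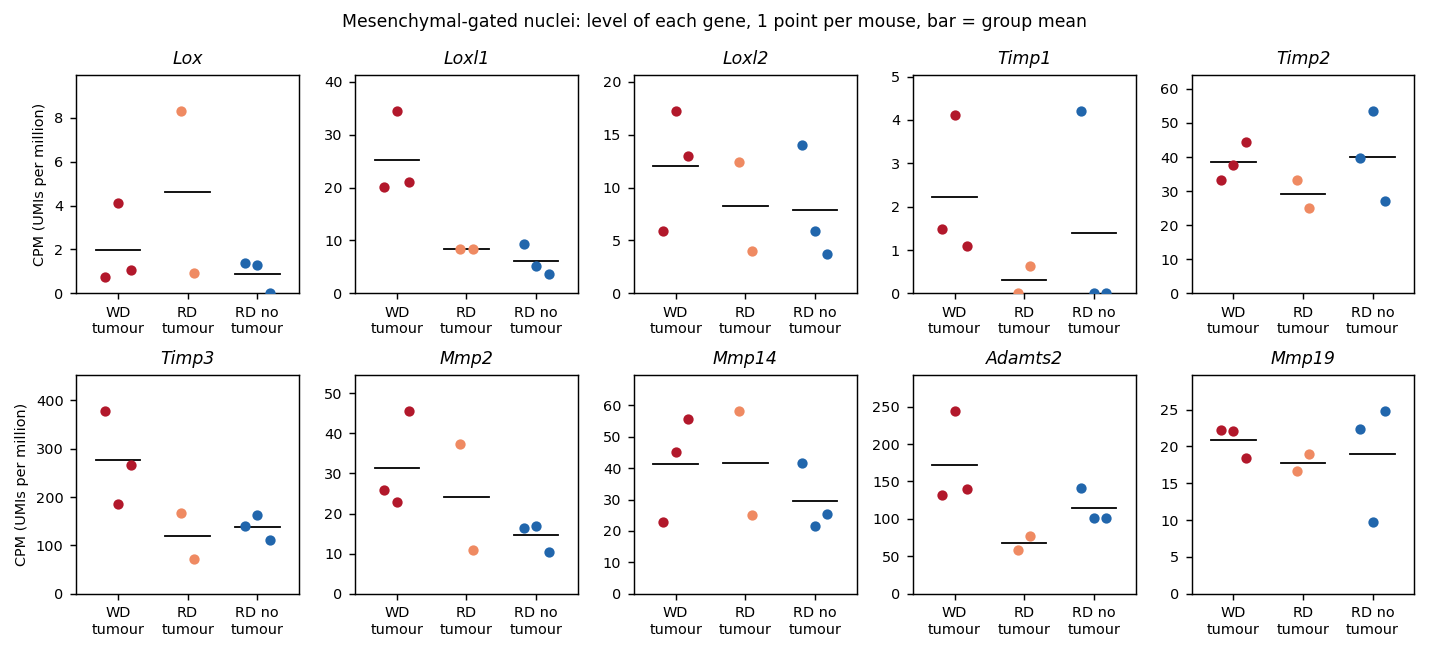
Level (CPM, linear axis from 0) of each gene in mesenchymal-gated nuclei, 1 point per mouse, with a bar at the group mean. For Loxl1 the 3 WD tumour mice (20.02 to 34.5 CPM) sit above all 5 mice returned to chow (3.75 to 9.35 CPM), and Timp3 shows the same order, whereas Timp2 and Mmp19 overlap.

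Other measures differed between the mesenchymal nuclei of these groups. The summed level of 10 stellate markers, all with a UMI in every mouse, was 6974 to 7784 CPM in WD tumour, below the 7824 to 8907 CPM of RD no tumour. The summed level of 10 fibroblast markers was 829 to 1427 CPM in WD tumour (9 or 10 markers with a UMI, Clec3b or Pi16 at 0 in 1 mouse each) and 405 to 1227 CPM in RD no tumour (9 markers, Clec3b or Entpd2 at 0). In RD tumour it was 365 to 802 CPM (7 to 10 markers, Dpt, Clec3b and Fbln1 at 0 in RD tumour 1). That of 10 cholangiocyte markers was 697 to 1220 CPM in WD tumour (9 markers, Epcam or Cftr at 0), 330 to 894 CPM in RD no tumour (7 to 9, with Krt19, Krt7, Cftr or Ehf at 0) and 299 to 383 CPM in RD tumour (6 to 10). Fibroblast-gated nuclei made up 5.12%, 9.60% and 7.35% of the class in WD tumour and 6.71%, 2.63% and 1.55% in RD no tumour. Their part in the Timp3 and Mmp2 results was not tested beyond stellate-gated nuclei alone, which gave log2 differences of 0.90 for Timp3 and 1.15 for Mmp2. With nuclei of at most 5% mitochondrial UMIs, Loxl1 gave 1.85, Timp3 0.84 and Mmp2 1.10.

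WD tumour against RD tumour compared tumour-bearing livers with and without return to chow. It shares the WD tumour mice with the comparison above, and the RD tumour group has only 2 mice, 1 of them with 99 mesenchymal nuclei. By the fitted difference all 8 tested members were higher in WD tumour, with a median log2 difference of 0.99 beside -0.01 over all genes. Mmp14 was the exception by group means (41.3 CPM against 41.7 CPM in RD tumour), and its fitted 0.27 was -0.24 without RD tumour 2. In 4 of them the groups did not overlap, as in 12.4% of all genes in that direction and 14% in the other. edgeR called 0 genes, with 1142 (8.93%) at an unadjusted p under 0.05, and DESeq2 called 52. Without RD tumour 2, edgeR called 518, none of them a member.

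Markers of the class itself moved with the RD tumour group. The 10 stellate markers summed to 1740 and 5553 CPM in the mesenchymal nuclei of RD tumour 1 and 2, below all 6 other mice (6974 to 8907 CPM). The 12 endothelial markers, all with a UMI, ran the other way, at 561 and 461 CPM in RD tumour and 203 to 407 CPM in the other 6. Of 12 macrophage markers, 10 and 12 had a UMI in RD tumour (Timd4 and Ccr2 at 0 in RD tumour 1), summing to 934 and 388 CPM, beside 210 to 488 CPM elsewhere with 11 or 12 (F13a1 at 0 in RD no tumour 2 and 3). The part of these in the mesenchymal differences that involve RD tumour was not tested. In stellate-gated nuclei alone Adamts2 gave 1.42 for WD tumour relative to RD tumour and -0.99 for RD tumour relative to RD no tumour.

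Adamts2 had the lowest unadjusted p of the members in this comparison: 58.1 and 77.7 CPM in RD tumour against 131 to 244 CPM in WD tumour, with a log2 difference of 1.40 ± 0.38 (SE; edgeR unadjusted p = 0.0057, adjusted p = 0.483). Timp3 differed by 1.41 ± 0.45 (SE; unadjusted p = 0.013) and Loxl1 by 1.66 ± 0.51 (SE; unadjusted p = 0.011), with edgeR adjusted p of 0.510 and 0.503. Timp2 was the fourth, at 33.4 to 44.4 CPM against 25.2 and 33.2 CPM, with a difference of 0.57 ± 0.37 (SE).

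RD tumour against RD no tumour compared the chow-returned livers with and without carcinoma. edgeR called 0 genes, with 917 (7.17%) at an unadjusted p under 0.05, and DESeq2 called 10. Without RD tumour 2, edgeR called 543, none of them a member. By the fitted difference 3 of the 8 tested members were higher and 5 lower, with a median of -0.35 beside -0.02 over all genes. Loxl2, counted as lower (-0.63), had a slightly higher mean in RD tumour (8.25 against 7.88 CPM). Adamts2 alone did not overlap: 58.1 and 77.7 CPM in RD tumour against 141, 102 and 101 CPM in RD no tumour, as in 8.54% of all genes in that direction and 15.7% in the other. Its log2 difference was -0.89 ± 0.37 (SE; edgeR unadjusted p = 0.044, adjusted p = 0.692), and -0.67 without RD tumour 1. The stellate marker sums, 1740 and 5553 CPM against 7824 to 8907 CPM, were lower in the same mice. Mmp2 differed by 0.17 ± 0.58 (SE), and by -0.61 in stellate-gated nuclei alone.

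**Figure D3:**
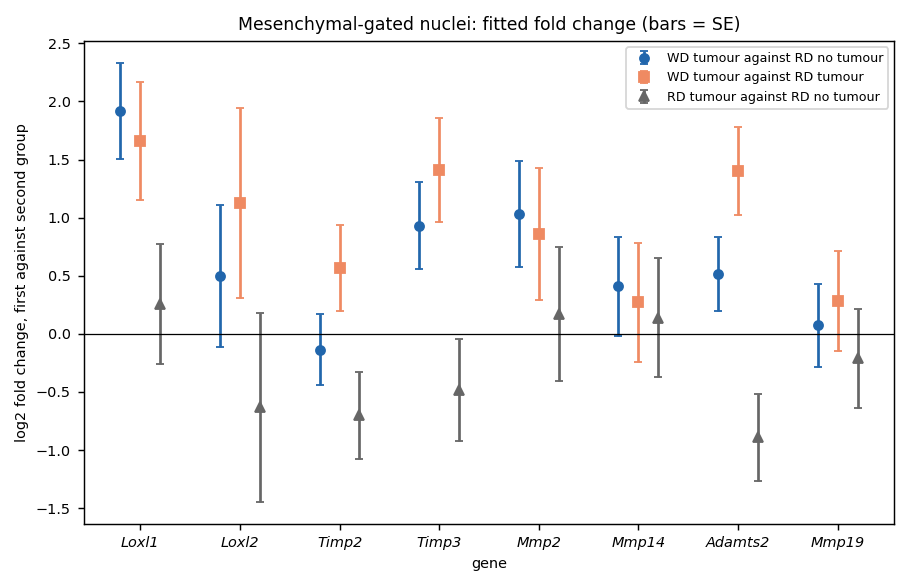
Fitted log2 difference (edgeR, error bars are standard errors) for the 8 tested genes in mesenchymal nuclei in the 3 comparisons, which share mice. Loxl1 lies at 1.92 and 1.66 for WD tumour against the chow-returned groups, and Adamts2 has values on both sides of 0 depending on the comparison.

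Whole libraries hold all nuclei, so fewer cells of a type and less RNA per cell cannot be told apart in them. Mesenchymal nuclei made up 6.49 ± 1.26% (SD, n = 3) of those of WD tumour mice, 5.66 ± 7.31% (SD, n = 2) for RD tumour and 8.11 ± 2.73% (SD, n = 3) for RD no tumour. Between WD tumour and RD no tumour, edgeR called 0 of 19087 genes, with 524 (2.75%) at an unadjusted p under 0.05, and DESeq2 called 36. By the fitted difference 9 of the 10 members were higher, Mmp19 being lower (-0.04) though its mean of 23.3 CPM was above the 22.9 CPM of RD no tumour. Of the 10, 2 did not overlap (Loxl1 and Mmp2), as did 6.85% of all genes in that direction and 3.8% in the other.

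Loxl1 stood at 3.23, 3.78 and 4.15 CPM in WD tumour, 2.30 and 2.72 CPM for RD tumour, and 2.33, 0.839 and 0.497 CPM in RD no tumour. The WD tumour libraries were again above all others, with a log2 difference from RD no tumour of 1.60 ± 0.55 (SE; edgeR unadjusted p = 0.020, adjusted p = 1.00). With nuclei of at most 5% mitochondrial UMIs the WD tumour mean was 2.84 CPM, against 3.72 CPM with all nuclei.

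Mmp2 stood at 4.40, 2.84 and 7.07 CPM in WD tumour, 4.60 and 3.75 CPM for RD tumour, and 2.23, 1.81 and 0.807 CPM in RD no tumour. The 3 RD no tumour libraries were below the 5 libraries of tumour-bearing mice. The log2 difference was 1.55 ± 0.51 (SE; edgeR unadjusted p = 0.016, adjusted p = 1.00) for WD tumour and 1.33 ± 0.55 (SE; unadjusted p = 0.041, adjusted p = 0.612) for RD tumour, both against the same RD no tumour mice.

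For RD tumour against RD no tumour in whole libraries, edgeR called 0 genes, with 1279 (6.7%) at an unadjusted p under 0.05, and DESeq2 called 64. Here 3 members did not overlap and were higher in RD tumour (Lox, Timp2 and Mmp2), as were 10.8% of all genes, with 5.85% lower in the same way. Lox gave 81 and 15 UMIs in RD tumour and 11, 5 and 0 in RD no tumour, where a count of 0 allows a level of up to 0.0931 CPM. Its log2 difference was 2.87 ± 1.22 (SE; edgeR unadjusted p = 0.047, adjusted p = 0.612), and 1.38 without RD tumour 1. In that library 40 of the 81 Lox UMIs were in nuclei of no class. Timp2 stood at 26.5 and 14.6 CPM against 14.0, 13.9 and 5.03 CPM (log2 difference 0.88 ± 0.46 SE), and at 0.31 without RD tumour 1.

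RD tumour 1 decided more of these values. Its Loxl2 level was 6.75 CPM, against 1.18 to 4.09 CPM in the other 7 libraries. The Loxl2 difference of 1.23 ± 0.66 (SE) between RD tumour and RD no tumour was -0.25 without RD tumour 1, and 1.93 with an edgeR adjusted p of 0.040 without RD tumour 2. With RD tumour 2 left out, 4569 genes were called in this comparison and 4438 in WD tumour against RD tumour. Summed over 8 neutrophil markers, all with a UMI, the level was 2265 and 100.3 CPM in RD tumour, 28.6 to 678 CPM in RD no tumour and 35.6 to 175 CPM in WD tumour. The part of that in the Lox and Loxl2 values was not tested.

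Timp1 followed single libraries rather than groups. It gave 149 UMIs in RD tumour 1, 69 in RD no tumour 1 and 44 in WD tumour 2, and 3 to 15 in the other 5. In RD tumour 1 it stood at 6.09 CPM in neutrophil-gated (29 UMIs), 4.69 CPM in macrophage (30 UMIs), 4.13 CPM in endothelial (17 UMIs) and 4.24 CPM in ungated nuclei (66 UMIs). The gene also overlaps Syn1 on the opposite strand, which gave 914 UMIs. Adamts2 differed by 0.09 ± 0.55 (SE) between WD tumour and RD no tumour, and by 1.09 without RD no tumour 1.

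In whole libraries, between WD tumour and RD tumour, edgeR called 0 genes, with 1443 (7.56%) at an unadjusted p under 0.05, and DESeq2 called 109. By the fitted difference 5 of the 10 members were higher and 5 lower. Loxl1 alone did not overlap, as was so for 10.4% of all genes in that direction and 11% in the other, with a log2 difference of 0.59 ± 0.60 (SE).

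**Figure D4:**
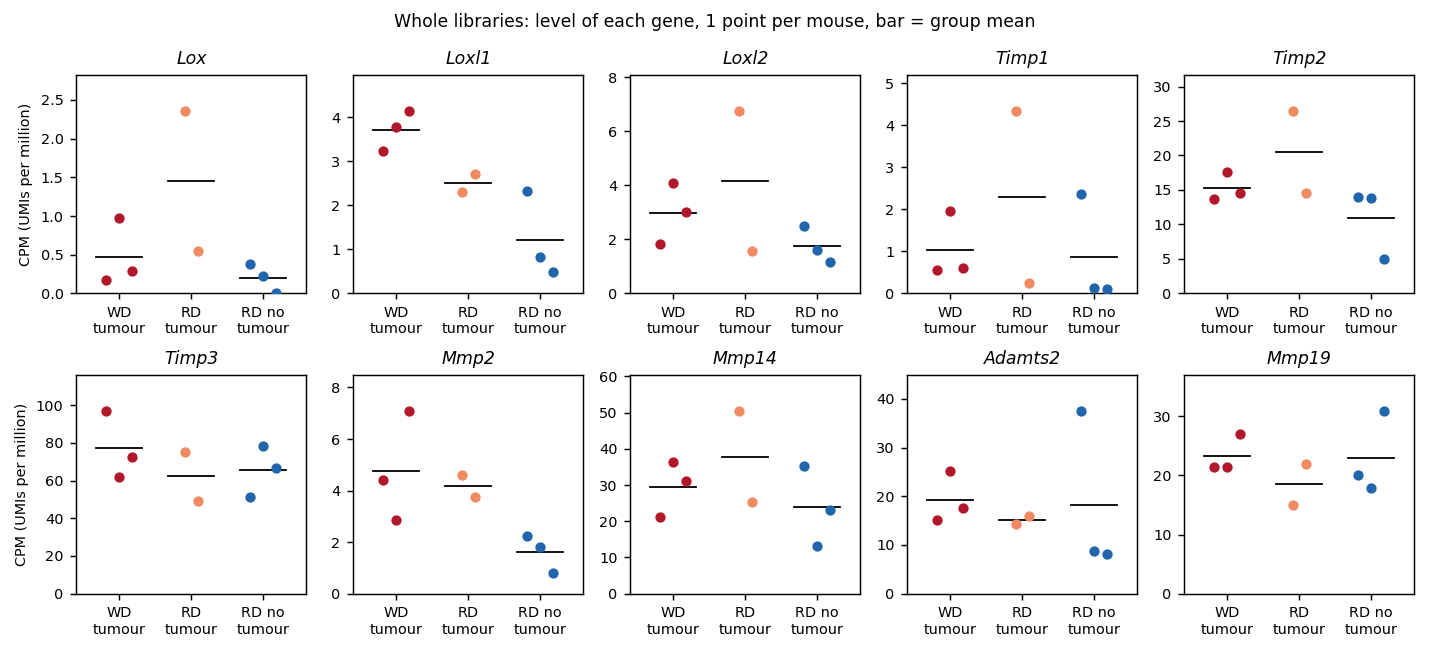
Level (CPM, linear axis from 0) of each gene in whole libraries, 1 point per mouse, with a bar at the group mean. Mmp2 is lowest in the RD no tumour mice, and Loxl1 is lowest there only by its group mean, while Lox, Loxl2 and Timp1 have 1 RD tumour mouse far above the other.

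In endothelial nuclei, edgeR called 0 of 14241 genes between WD tumour and RD no tumour, with 244 (1.71%) at an unadjusted p under 0.05, and DESeq2 called 8. None of the 6 tested members lacked overlap, where 6.62% of all genes did with WD tumour higher and 2.7% with it lower. Timp3 leaned the other way from the mesenchymal class: 187, 122 and 149 CPM in WD tumour, 103 and 69.9 CPM for RD tumour, and 169, 341 and 166 CPM in RD no tumour. The groups overlapped, with a log2 difference of -0.62 ± 0.38 (SE).

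The difference between the classes was itself fitted over the 6 mice, with the mouse as a block; this fit was chosen once the values had been seen. For Timp3 the change in mesenchymal nuclei exceeded that in endothelial nuclei by 1.47 ± 0.21 (SE) on the log2 scale, with an unadjusted p of 2.31e-05 and an edgeR adjusted p of 0.260. Without each mouse in turn it ranged from 1.26 to 1.65, with adjusted p from 0.0573 to 0.856. No gene passed in this fit, and 569 (4.07%) of 13986 had an unadjusted p under 0.05. Syn3 in endothelial nuclei stood at 89.0, 120.1 and 60.9 CPM in WD tumour and 122, 126 and 106 CPM in RD no tumour.

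**Figure D5:**
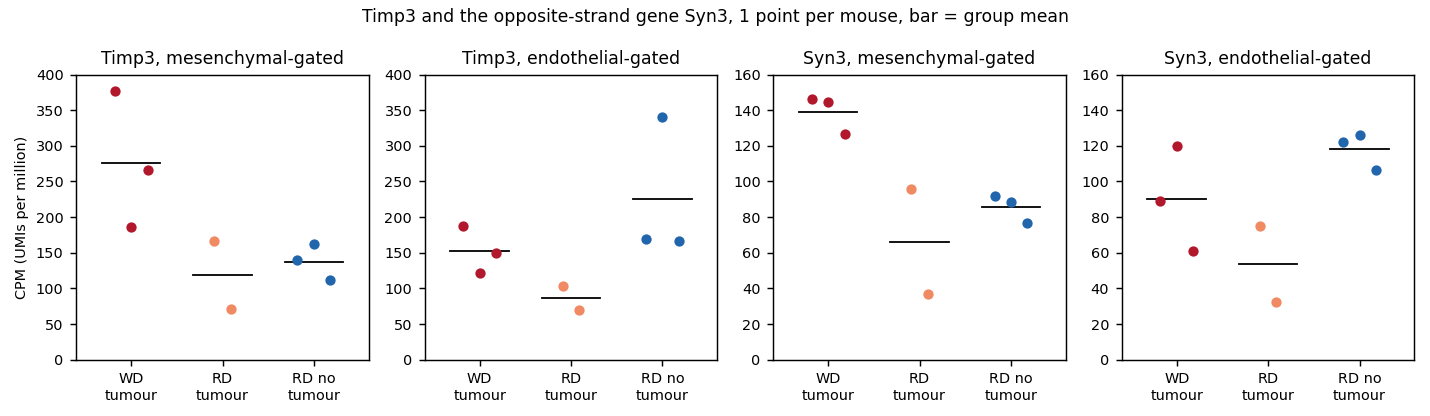
Timp3 and the opposite-strand gene Syn3 in mesenchymal and endothelial nuclei (CPM, linear axes from 0), 1 point per mouse with a bar at the group mean. Timp3 in WD tumour is above the other groups in mesenchymal nuclei (185 to 377 CPM) and overlaps RD no tumour in endothelial nuclei (122 to 187 against 166 to 341 CPM), and Syn3 is also highest in WD tumour in mesenchymal nuclei.

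In macrophages, edgeR called 0 of 14105 genes, with 260 (1.84%) at an unadjusted p under 0.05, and DESeq2 called 9. Mmp2 was the 1 member of 6 tested without overlap, where 6% of all genes were so with WD tumour higher and 3.19% with it lower. The low-count filter ran over all 3 groups, and Mmp2 passed it only through RD tumour, which is outside this comparison. The 1 of 6 is therefore no fair count beside those shares. Mmp2 stood at 3.04, 1.93 and 2.22 CPM in WD tumour, 3.91 and 4.33 CPM for RD tumour, and 0.595, 0.918 and 0.431 CPM in RD no tumour. Fibroblast markers in these nuclei were ordered alike, summing to 41.7 to 57.0 CPM in WD tumour (7 to 9 of 10 with a UMI), 59.0 to 71.5 CPM for RD tumour (10 of 10) and 12.9 to 34.4 CPM in RD no tumour (6 to 9 of 10). Clec3b was at 0 in 5 of those mice, Mfap4 in 4, Fbln1 in 2 and Dpt and Pi16 in 1 each. The 10 stellate markers summed to 215 to 285 CPM in WD tumour, 132 and 443 CPM for RD tumour and 176 to 192 CPM in RD no tumour. In hepatocyte-gated nuclei the mean Mmp2 level was 2.45 CPM for WD tumour and 0.533 CPM for RD no tumour. The part of mesenchymal RNA in the macrophage Mmp2 value was not tested. WD tumour and RD no tumour rest on 19 and 7 UMIs, and the log2 difference was 1.79 ± 0.59 (SE; edgeR unadjusted p = 0.016, adjusted p = 1.00). Endothelial Mmp2, too sparse to test, was 3.64, 1.61 and 2.14 CPM in WD tumour and 0.373, 0 and 0.715 CPM in RD no tumour. The Mmp2 difference was lower in mesenchymal than in macrophage nuclei by 0.85 ± 0.55 (SE) on the log2 scale, with an edgeR adjusted p of 1.00. In that fit no gene passed and 3.16% of all genes had an unadjusted p under 0.05.

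Other genes of matrix assembly and turnover were read from 4 lists. In mesenchymal nuclei none of their tested genes passed in any comparison. Between WD tumour and RD no tumour, 7 of 14 genes of collagen folding and maturation were higher and 7 lower, as were 2 and 3 of 5 other metalloproteinases, 11 and 3 of 14 ADAMTS and ADAM genes, and 10 and 3 of 13 inhibitors and other proteases. Adamts1, a proteinase of versican and aggrecan, was lower at 34.8, 55.8 and 47.7 CPM in WD tumour against 128, 118 and 73.6 CPM in RD no tumour. Its log2 difference was -1.28 ± 0.30 (SE; edgeR unadjusted p = 0.0024, adjusted p = 1.00). Adamts15 differed by -1.33 ± 0.42 (SE) and the lysosomal protease Ctsl by -1.19 ± 0.30 (SE). These genes were named for an unadjusted p under 0.05 and no overlap, and 3.83% of all genes were lower without overlap. The same rule named Ctsl, again lower, in whole libraries (329 to 369 against 602 to 938 CPM), in endothelial nuclei (329 to 440 against 711 to 1059 CPM) and in macrophages (266 to 301 against 488 to 785 CPM). There 3.8%, 2.7% and 3.19% of all genes were lower without overlap. The rule also named genes with a greater mean in the WD tumour group. In whole libraries these were Mmp12, Mmp7, Mmp15 (10.2 against 3.91 CPM) and Adamts16 (1.24 against 0.275 CPM). In endothelial nuclei they were Mmp7 (3.03 against 0.308 CPM) and Mmp12 (10.7 against 1.48 CPM). In macrophages they were Mmp12, Adamts12 (12.0 against 2.76 CPM) and Mrc2 (7.40 against 2.76 CPM). Of all genes, 6.85%, 6.62% and 6% were higher without overlap.

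For RD tumour against RD no tumour in mesenchymal nuclei, the same rule named Adamts14, Adamts3, Mmp17, Adamts5 and Adamts15, all lower in RD tumour. They were thus picked for no overlap, and 8.54% of all genes were lower and 15.7% higher without overlap. The log2 difference was -2.27 for Mmp17, -1.61 for Adamts5 and -1.66 for Adamts15. Adamts14 and Adamts3 are relatives of Adamts2 that also process procollagen. The stellate marker sum in RD tumour was also below that of every other mouse. Adamts14 stood at 12.5 and 15.5 CPM in RD tumour, 44.4, 52.9 and 56.3 CPM in RD no tumour, and 40.0, 55.0 and 59.6 CPM in WD tumour. The RD tumour mice were below the other 6, with log2 differences of -1.95 ± 0.33 (SE; edgeR unadjusted p = 0.00031, adjusted p = 0.651) from RD no tumour; WD tumour exceeded RD tumour by 1.89 ± 0.33 (SE; unadjusted p = 0.00037, adjusted p = 0.282). Adamts3 stood at 33.2 and 42.9 CPM in RD tumour against 86.9, 125 and 68.3 CPM in RD no tumour. By the fitted difference, 11 of 14 genes of the collagen folding and maturation list were lower and 3 higher in RD tumour, relative to RD no tumour. Other metalloproteinases were 3 lower and 2 higher of 5, and ADAMTS and ADAM genes 9 and 5 of 14. Inhibitors and other proteases were 5 lower and 8 higher of 13. The median log2 differences were -0.46, -0.64, -0.46 and 0.43, beside -0.02 over all genes.

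Against the RD tumour mice, further genes were higher in the mesenchymal nuclei of WD tumour, as was the stellate marker sum (6974 to 7784 against 1740 and 5553 CPM), while the endothelial marker sum was lower (217 to 348 against 561 and 461 CPM). Plod2, the lysyl hydroxylase that prepares collagen for crosslinking, stood at 60.8, 152 and 83.5 CPM against 37.4 and 27.7 CPM, with a log2 difference of 1.77 ± 0.56 (SE; edgeR unadjusted p = 0.013, adjusted p = 0.510). Adamts5 differed by 1.80 ± 0.53 (SE), Adamts12 by 1.93 ± 0.54 (SE) and Htra3 by 1.74 ± 0.40 (SE), with edgeR adjusted p of 0.498, 0.493 and 0.440. The genes named here were picked for a large change, an unadjusted p under 0.05 and no overlap. By the fitted difference 11 of 14 collagen maturation genes were higher and 3 lower, and 10 and 4 of 14 ADAMTS and ADAM genes. Metalloproteinases were 3 and 2 of 5, and inhibitors and other proteases 6 and 7 of 13. In that order 4, 5, 3 and 3 were higher without overlap and 1, 1, 0 and 1 lower. Over all genes these shares were 12.4% and 14%.

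In whole libraries Mmp12, the macrophage metalloelastase, stood at 17.1, 4.35 and 32.9 CPM in WD tumour, 1.69 and 4.26 CPM for RD tumour, and 3.67, 2.07 and 0.745 CPM in RD no tumour. All 3 WD tumour libraries were above the rest, 1 of them by little, and the log2 difference from RD no tumour was 3.07 ± 0.85 (SE; edgeR unadjusted p = 0.0071, adjusted p = 1.00). In macrophages it was 90.4, 11.4 and 194 CPM against 9.52, 10.1 and 2.59 CPM. Mmp7, known from bile-duct epithelium, stood at 4.79, 3.07 and 3.09 CPM in WD tumour, 5.38 and 6.21 CPM for RD tumour, and 1.78, 0.441 and 0.435 CPM in RD no tumour. Mmp9, a neutrophil gelatinase, stood at 25.7 and 2.28 CPM in RD tumour, 10.9, 0.706 and 0.621 CPM in RD no tumour, and 1.34 to 1.87 CPM in WD tumour. The highest value was in the library with the most neutrophil-gated nuclei, RD tumour 1, and the second highest in RD no tumour 1. In whole libraries the naming rule also gave Serpinh1 (9.02 against 3.48 CPM) and Plat (3.83 against 0.856 CPM). Both were higher in RD tumour, relative to RD no tumour. Serpinh1 is on the collagen maturation list, which was 9 higher and 9 lower of 18 there. Against RD tumour, the rule gave Mmp13 (0.519 against 0.0146 CPM), Adamts7 (9.20 against 2.44 CPM) and Adamts16 (1.24 against 0.162 CPM). These were higher in WD tumour, Mmp13 from 33 and 1 UMIs. None passed after adjustment.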

How the data were processed

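Libraries of nuclear RNA from 8 mice (WD tumour 3, RD tumour 2, RD no tumour 3, grouped by the sample labels; separate animals per the series text) were used. The authors deposited raw UMI counts per gene and barcode, made with Cell Ranger 7.0.0 on mm10 per the submitters' processing notes; whether counting used strand or intronic reads is not given in the sources used here. All 32285 genes were read, and 32158 IDs, with all 10 members, matched GENCODE M21 (GRCm38). Barcodes with at least 300 genes were kept, and doublets were not removed (Scrublet calls are an alternative). A class needed 3 distinct markers, more than any other non-hepatocyte class; hepatocytes needed 3 hepatocyte markers and under 2 of any other class. Summed counts per mouse were tested in edgeR 4.0.16 (R 4.3.3, quasi-likelihood, TMM, filterByExpr), with all 8 mice in 1 model. Benjamini-Hochberg adjustment ran over all genes, with a threshold of 0.05. The code was run on simulated counts with the same spread for every gene and no outlying library. That run therefore does not show the error or power of the test here. DESeq2 1.42.0 and scanpy 1.11.5 served alternatives. Standard errors are the log2 difference over the square root of F. The smallest summed class is limited by counting. Genes of the other lists are named where an adjusted p passed or, failing 5 such genes, as up to 5 of the greatest change with an unadjusted p under 0.05 and no overlap; the 3 most alike genes are taken per member. Members and lists were chosen with earlier results of these data known.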

Additional observations from a re-analysis of the deposited data

How the results depend on the processing

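The log2 differences of the members gave 1276 values over 21 alternatives, of which 1208 kept their direction and side of the threshold, 67 changed direction and 1 passed the threshold (Loxl2 in whole libraries, 1.93, without RD tumour 2, RD tumour against RD no tumour). Where a direction changed, the cause was not tested. Numbers of genes called differed by over 1.5 times in 26 of 157 values. DESeq2 called 36, 64 and 109 genes in whole libraries (for WD tumour against RD no tumour, then RD tumour against RD no tumour, then WD tumour against RD tumour, the order used here), 13, 10 and 52 in mesenchymal, 8 in endothelial and 9 in macrophage nuclei, where edgeR called 0. With no filter on low counts, edgeR called 2 genes in mesenchymal nuclei for RD tumour against RD no tumour, and 7 between WD tumour and RD tumour. These alternatives were added after the data were seen: stellate-gated nuclei alone, the library cluster as a block, and leaving out RD no tumour 1 with WD tumour 2.

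Same-numbered mice did not pair: of 7 correlations of their deviations, from -0.531 to 0.439, only 3 were over 0.1. With the replicate block, 0 genes were called and the directions that changed were those of Mmp19 (0.012, whole library, WD tumour against RD no tumour; 0.064, endothelial) and Timp1 (1.00, whole library, WD tumour against RD tumour).

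With the library cluster as a block, 2 genes were called in whole libraries (WD tumour against RD no tumour), 27, 6 and 27 in mesenchymal, 4 in endothelial and 1 in macrophage nuclei. Adamts2 was 0.47 (whole library, RD tumour against RD no tumour), and for WD tumour against RD tumour Loxl2 was 0.71, Timp1 0.85, Timp2 0.022, Mmp14 0.074 and Adamts2 -0.081. In mesenchymal nuclei, RD tumour against RD no tumour, Mmp2 was -0.65 and Mmp14 -0.15. Leaving out RD no tumour 1 and WD tumour 2, 1 gene was called in each of the first 2 mesenchymal comparisons; Adamts2 was 0.73 in whole libraries and Loxl2 0.026 in mesenchymal nuclei (RD tumour against RD no tumour), and in endothelial nuclei Timp2 was -0.095 and Adamts2 0.58.

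Among nuclei with at most 5% mitochondrial UMIs, Timp1 was -0.23, Adamts2 -0.19 and Mmp19 0.018 in whole libraries (WD tumour against RD no tumour), Mmp2 -0.19 (WD tumour against RD tumour), and endothelial Timp2 -0.14 and Mmp19 0.11. With at least 500 genes per nucleus, Timp1 was -0.012 in whole libraries (WD tumour against RD no tumour). Without doublet calls, endothelial Timp2 was -0.16, and in mesenchymal nuclei (RD tumour against RD no tumour) Mmp2 was -0.034 and Mmp14 -0.053. There a gate of 4 markers gave Loxl1 -0.052 and Mmp19 0.045, and stellate-gated nuclei gave Mmp2 -0.61.

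Leaving out each mouse in turn, numbers of genes called ranged from 0 to 4569 and from 0 to 4438 in whole libraries (for RD tumour against RD no tumour, then WD tumour against RD tumour), and from 0 to 2, 0 to 543 and 0 to 518 in mesenchymal nuclei, the highest values without RD tumour 2 in the comparisons with RD tumour. In whole libraries, WD tumour against RD no tumour, Timp1 ranged from -0.51 to 3.06, Timp3 from -0.055 to 0.35, Mmp14 from -0.023 to 0.59, Adamts2 from -0.24 to 1.09 and Mmp19 from -0.19 to 0.29. For RD tumour against RD no tumour, Loxl2 ranged from -0.25 to 1.93, Timp1 from -1.78 to 4.26, Timp3 from -0.54 to 0.17, Mmp14 from -0.019 to 1.06 and Adamts2 from -0.57 to 0.72. For WD tumour against RD tumour, Loxl2 ranged from -1.21 to 0.98, Timp1 from -2.09 to 2.05, Timp2 from -0.81 to 0.14, Mmp2 from -0.21 to 0.50 and Mmp14 from -0.80 to 0.28. In mesenchymal nuclei, WD tumour against RD no tumour, Timp2 ranged from -0.35 to 0.16 and Mmp19 from -0.21 to 0.29. There, for RD tumour against RD no tumour, Loxl2 ranged from -1.11 to 0.31, Mmp2 from -0.55 to 1.03, Mmp14 from -0.35 to 0.66 and Mmp19 from -0.51 to 0.00062, and Mmp14 from -0.24 to 0.77 for WD tumour against RD tumour. In endothelial nuclei Timp2 ranged from -0.27 to 0.44, Mmp14 from -0.28 to 0.11, Adamts2 from -0.88 to 0.69 and Mmp19 from -0.28 to 0.45, and Adamts2 in macrophages from -0.19 to 1.33. With RD tumour reduced to 1 mouse, its spread is assumed to be that of the other groups. Counts limit Lox, Timp1 and the RD tumour 1 mesenchymal class (99 nuclei).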

Other observations

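Mesothelial-gated nuclei, the surface lining of the liver, were few (1 to 28 per mouse) but held Timp2 UMIs in 7 of 8 mice. In the mice with at least 20 such nuclei, Timp2 stood at 182 CPM in RD no tumour 1 (8 UMIs in 20 nuclei) and at 147 CPM in RD tumour 2 (9 UMIs in 28 nuclei), and Mmp14 at 68.3 CPM (3 UMIs) and 65.4 CPM (4 UMIs). RD no tumour 2 gave 16 Timp2 UMIs in 13 nuclei. No comparison between groups was possible in this class.

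In RD tumour 1, ungated nuclei held 49.4% of the Lox UMIs, 43.5% of Loxl2, 44.3% of Timp1 and 41.8% of Mmp2, beside 45.3% of all UMIs of that library.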
